A study of Canis lupus familiaris with 124 samples.

Results

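The gene expression of canine prostate adenocarcinoma (PAC) cell lines was compared with that of canine transitional cell carcinoma (TCC) cell lines. Of the 17 cell lines and tissues of the series, all 8 cell lines were used, 5 from PAC and 3 from TCC, with 14 and 8 of the 22 cell line libraries. A line belonged to PAC or TCC by the histopathological classification in its labels, and no measured value was used to choose it. For TCC0840, the paper states a diagnosis by cytology of a fine needle aspirate, so that its class does not rest on tissue histology. The PAC lines were Adcarc0846 from dog 2 (German Rough-haired Pointer, male, 6 years), Adcarc1508 from dog 3 (Mixed breed, male neutered, 11 years), and Adcarc1511.1, Metadcarc1511.2 and Metadcarc1511.3 from dog 4 (Dobermann, male neutered, 6 years). The last 2 of these came from metastases. The TCC lines were TCC0840 from dog 5 (Pitbull Terrier, male neutered, 10 years), TCC1506 from dog 7 (Labrador Retriever, female, 10 years) and TCC1509 from dog 6 (Bolonka Zwetna, male neutered, 9 years). The contrast was therefore one of 3 PAC dogs against 3 TCC dogs, and tests over 5 against 3 lines treat the 3 lines of dog 4 as independent. TCC does not stand for bladder here. By their names and tissues of origin, TCC0840 and TCC1509 came from the prostate, and only TCC1506 came from the urinary bladder, so that class, organ and dog cannot be separated. TCC1506 was also the only line from a female dog. All lines were untreated, grew in Medium 199 with fetal calf serum and were collected at passages 68 to 107, except Adcarc0846 at 447 to 448 and TCC0840 at 350 to 352.

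Prostate adenocarcinoma arises from the glandular epithelium of the prostate, and transitional cell carcinoma from the urothelium that lines the bladder and the urethra, including its prostatic part. Both can grow in the canine prostate, where histology alone may not tell them apart. Luminal prostate cells respond to androgens and express secretory genes and the transcription factor HOXB13. Urothelium is recognized by uroplakins, and basal cells of both epithelia by the transcription factor TP63.

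The pooled lines held between 33500674 and 55488800 expected counts and the single libraries between 15355798 and 19935282. Levels are given as CPM, counts relative to the library size after TMM scaling, which are not corrected for gene length. Of 32183 genes, 12557 had at least 10 counts in all PAC or in all TCC lines and were tested, and 890 of these could be given a symbol. In 20 of the 22 libraries, the library most alike over the tested genes came from the same line. The exceptions were library 1 of Metadcarc1511.2 (passage 68) and library 1 of Metadcarc1511.3 (passage 79), which correlated with each other at 0.980 and with the libraries of their own lines at 0.958 at most, on log2(CPM + 1). The sample numbers in the labels form 2 series, of which the first holds Adcarc0846, TCC0840 and 2 libraries of TCC1506, and the second all other line libraries. Libraries of a line came from the same or nearby passages and were handled as technical replicates, so that each line entered as 1 sample.

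Between PAC and TCC lines, no gene was at least 2-fold apart with an adjusted p of 0.01 or less. This was 0.0% of the genes tested with the quasi-likelihood test of edgeR, while DESeq2 called 106 genes (0.844%), 64 higher in PAC and 42 higher in TCC lines. The unadjusted p was below 0.05 for 1079 genes (8.59%), with 471 higher in PAC lines (3.75%) and 608 higher in TCC lines (4.84%). At an adjusted p of at most 0.05, edgeR left 3 genes (0.0239%), 1 higher in PAC and 2 higher in TCC lines. With the 3 lines of dog 4 summed to 1 sample, no gene reached that threshold. Of the 12835 genes tested in that way, 492 had an unadjusted p below 0.05, a smaller share than the 8.59% over lines. Differences in fitted level were nonetheless common, since 1572 genes (12.5%) differed at least 2-fold. The spread within the classes was of like size. The median SD of a gene over the 3 TCC lines was 0.460 on log2(CPM + 1), over the 3 PAC dogs it was 0.344, and over the 3 lines of dog 4 it was 0.249. The median absolute difference between the class means was 0.273. The SD over TCC lines exceeded that over PAC dogs for 63.6% of the genes.

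Over all tested genes, the lines of dog 4 were close to each other, while lines of different dogs lay apart within the classes as well as between them. Between lines of different class, the Euclidean distance of rlog values over the tested genes was 105.6 to 152.7 with a median of 130.3 over 15 pairs. PAC lines of different dogs were 97.3 to 114.5 apart (7 pairs), and the 3 lines of dog 4 were 49.3 to 84.8 apart. The 3 TCC lines were 126.0 to 155.7 apart, so that no TCC line was closest to another TCC line. TCC0840, TCC1506 and TCC1509 each lay nearest to the PAC line Adcarc1508, at 105.6, 118.3 and 137.2. Adcarc1508 was also the nearest line from another dog for each PAC line other than itself. The mean distance between classes was 131.8 and that within classes 107.5, a difference of 24.3 (exact permutation test over 56 assignments of lines, two-sided, p = 0.018, the smallest that this design can give). With dog 4 as 1 sample, the difference shrank to 4.4 and its exact permutation p was 0.2 over 20 assignments, where no p under 0.1 is possible.

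**Figure D1:**
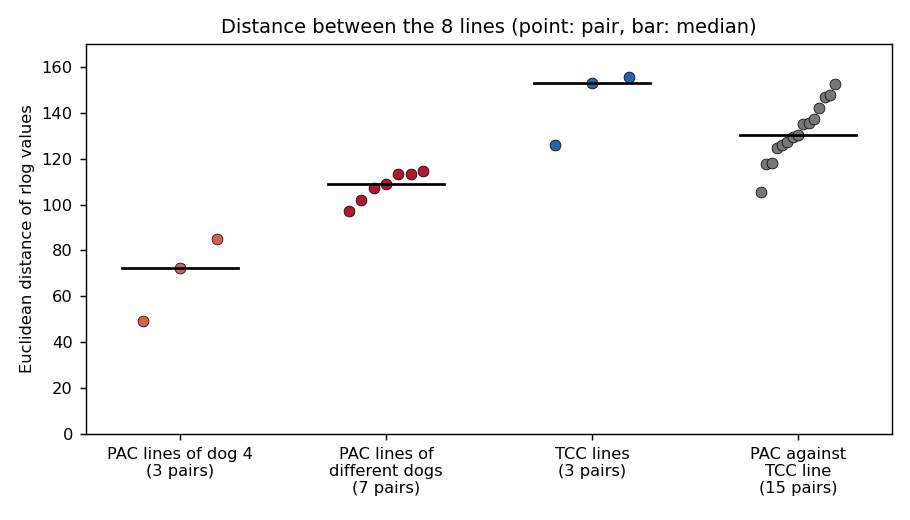
Euclidean distance of rlog values (vertical axis, from 0) for the 28 pairs of the 8 lines, by kind of pair, each point being 1 pair and each bar the median of its kind. The pairs of TCC lines lie at 126.0 to 155.7 and reach beyond the highest of the 15 pairs of different class, at 152.7, while pairs of PAC lines of different dogs lie at 97.3 to 114.5.

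The axes of a principal component analysis of the 8 lines also followed single lines and dogs. Component 1 (28.3% of the variance) set TCC1509 at -99.5 apart from the other 7 lines, at -22.9 to 41.9. On component 2 (24.6%), the 3 lines of dog 4 at -34.4 to -30.1 and TCC1509 at -50.3 lay on one side, and Adcarc0846, Adcarc1508, TCC0840 and TCC1506 on the other. Component 3 (17.0%) had TCC1506 at -69.7 and Adcarc0846 at 49.8 as its ends. Among the genes tested, those in which a single line stood apart from the other 7 were also counted, which is easier to meet than a gap between 5 and 3 lines. The count filter leaves out genes near 0 in some line of each class, such as DCN and FLI1, high in TCC1509 alone. Counts above and below the other lines can therefore not be compared with each other. TCC1509 was at least 4-fold below all other lines in 193 genes and at least 4-fold above them in 41 genes, on CPM + 1. In TCC1506, 85 genes were above and 50 below all others by as much, in TCC0840 the counts were 15 and 41, and in Adcarc0846 they were 24 and 40. The counts were lower in Adcarc1508 (3 and 7), Adcarc1511.1 (6 and 10), Metadcarc1511.2 (4 and 0) and Metadcarc1511.3 (1 and 5). The lines of dog 4 together stood 4-fold above the other 5 lines in 10 genes and below in 12. All PAC lines were 4-fold above all TCC lines in 8 genes, and all TCC lines 4-fold above all PAC lines in 5.

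In 34 genes the lines of the classes did not overlap and were at least 2-fold apart. Of these, 22 were higher in every PAC line (0.175% of the genes tested) and 12 higher in every TCC line (0.0956%). For 18 of the 34 genes, the 2-fold gap also held between all 14 PAC and all 8 TCC libraries. A symbol was known for 5 of them, VAMP5, KRT80 and COL5A2 on the PAC side and ADGRL2 and ARNT2 on the TCC side.

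VAMP5 encodes a vesicle membrane protein of the SNARE family. It was measured at 83.2 CPM in Adcarc0846, 62.8 in Adcarc1508, 98.0 in Adcarc1511.1, 65.7 in Metadcarc1511.2 and 79.9 in Metadcarc1511.3. The TCC lines had 24.1 CPM in TCC0840, 19.3 in TCC1506 and 17.7 in TCC1509. The lowest PAC line was thus above the highest TCC line, and the spread within each class was small. Its log2 fold change (PAC minus TCC) was 1.94 ± 0.24 (SE, edgeR adjusted p = 0.088), and 1.87 ± 0.27 with dog 4 as 1 sample (edgeR adjusted p = 0.877).

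KRT80, a keratin of differentiating epithelia that lies near desmosomes, had 817 CPM in Adcarc0846, 1029 in Adcarc1508, 802 in Adcarc1511.1, 1297 in Metadcarc1511.2 and 1457 in Metadcarc1511.3. In TCC0840 it was at 351 CPM, in TCC1506 at 170 and in TCC1509 at 174. This gave a log2 fold change of 2.22 ± 0.37 (SE, edgeR adjusted p = 0.146), and 2.12 ± 0.39 by dog (edgeR adjusted p = 0.952). DESeq2 gave an adjusted p of 3.35e-06 for the same contrast.

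COL5A2 encodes the alpha 2 chain of the fibrillar collagen V. Adcarc0846 had 697 CPM, Adcarc1508 341, Adcarc1511.1 1537, Metadcarc1511.2 1418 and Metadcarc1511.3 771. TCC0840 had 33.0 CPM, TCC1506 16.7 and TCC1509 1.60. Every PAC line was more than 10-fold above every TCC line, although both classes varied widely within themselves. The log2 fold change was 5.80 ± 1.08 (SE, edgeR adjusted p = 0.191, DESeq2 adjusted p = 2.52e-10), and 6.71 without TCC0840. By dog it was 5.44 ± 1.17 (SE, edgeR adjusted p = 0.999).

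ADGRL2, an adhesion G protein-coupled receptor that binds teneurins, had 60.5 CPM in TCC0840, 93.7 in TCC1506 and 37.8 in TCC1509. It reached 3.86 CPM in Adcarc0846 and 8.65 in Adcarc1508, and no more than 0.279 in the 3 lines of dog 4. The log2 fold change was -4.62 ± 1.39 (SE, edgeR adjusted p = 0.463), and -5.89 without Adcarc1508. ARNT2, a partner of bHLH-PAS transcription factors, was even across the TCC lines at 8.89, 8.60 and 8.51 CPM. In Adcarc0846 it was at 2.62 and in Adcarc1508 at 1.52 CPM, and the lines of dog 4 had 0 or 1 count each. The log2 fold change of ARNT2, -3.38 ± 1.61 (SE, edgeR adjusted p = 0.599), was -4.47 without Adcarc0846. The highest PAC line, which sets the gap to the TCC lines, was Adcarc1508 for ADGRL2 and Adcarc0846 for ARNT2. Lower levels in the lines of dog 4 entered the fold changes of both genes but not this gap.

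The 3 genes of lowest p carry no symbol in the sources used here. ENSCAFG00000007126 had 1693 to 7978 counts in the PAC lines (28.3 to 171 CPM) and 9, 2 and 4 counts in TCC0840, TCC1506 and TCC1509. ENSCAFG00000012883 had 785, 1990 and 389 counts in the TCC lines, 3 counts in Adcarc1508 and 0 in the other PAC lines. ENSCAFG00000002223 had 132, 169 and 75 counts in the TCC lines and 2 to 5 in the PAC lines. All 3 had an edgeR adjusted p of 0.0225. By dog, their adjusted p values were 0.803, 0.877 and 0.877 in edgeR.

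**Figure D2:**
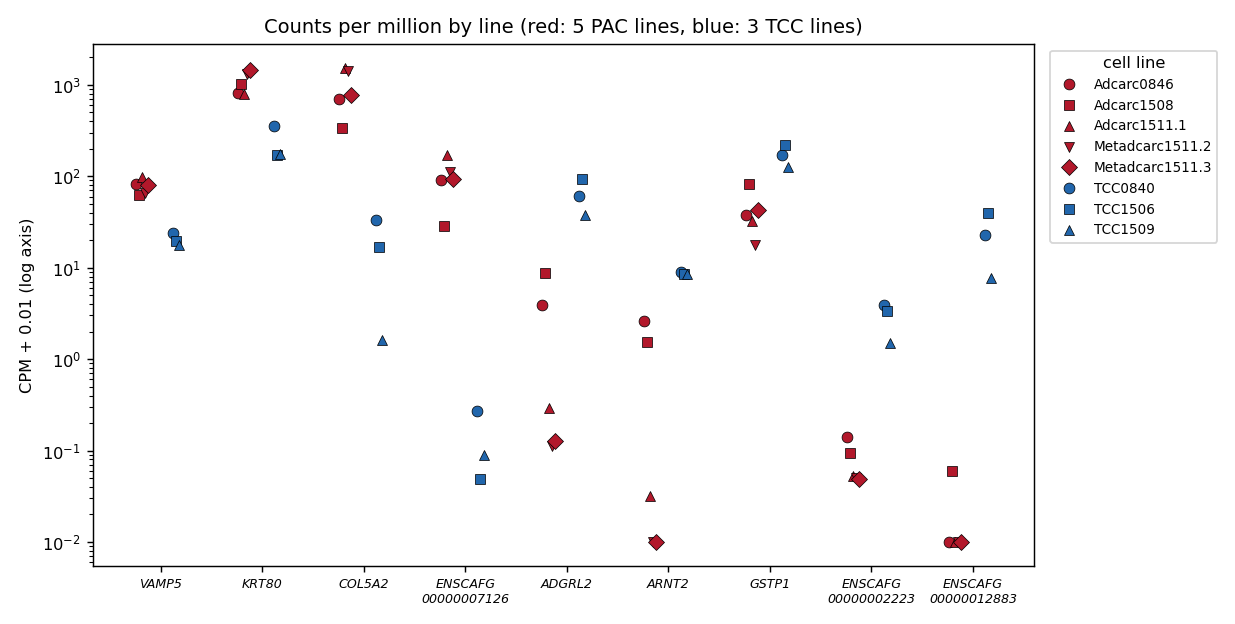
CPM plus 0.01 on a log axis for 9 genes (horizontal axis) in the 5 PAC lines (red) and the 3 TCC lines (blue), 1 symbol shape per line within a class. VAMP5, KRT80, COL5A2 and ENSCAFG00000007126 are higher in every PAC line and the other 5 genes in every TCC line. In ADGRL2 and ARNT2 the 3 lines of dog 4 sit below the other PAC lines.

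Of 13 prostate markers, 11 had an identifier, 7 were tested and none passed. Their median log2 fold change was -0.10, against -0.04 over all genes tested. There were 3 members with an unadjusted p below 0.05, 1 higher in PAC lines (GOLM1) and 2 higher in TCC lines (GSTP1 and PSCA). The shares over all genes tested were 3.75% and 4.84%. HOXB13, which marks the prostate and the hindgut, did not follow the class. It had 55.3 CPM in Adcarc1508, 22.4 in Metadcarc1511.3, 12.6 in Metadcarc1511.2 and 11.0 in Adcarc1511.1 but 0.934 in Adcarc0846. TCC1506, from the bladder of a female dog, had 21.0 CPM, TCC1509 20.3 and TCC0840 13.4. AMACR stayed at or below 0.768 CPM in every line, and KLK2 had 0 counts in all 8. These genes thus did not set the PAC lines apart.

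GOLM1, a Golgi membrane protein, was at 239 CPM in Adcarc0846, 337 in Adcarc1511.1, 348 in Metadcarc1511.2 and 175 in Metadcarc1511.3. Adcarc1508 had 25.0 CPM and lay below all TCC lines, at 35.9, 34.3 and 45.9. PAC and TCC lines differed by a log2 fold change of 2.54 ± 0.73 (SE, edgeR adjusted p = 0.453). GSTP1, a glutathione transferase that conjugates electrophiles and is counted among drug resistance genes too, showed the opposite order. It was at 169 CPM in TCC0840, 222 in TCC1506 and 125 in TCC1509, and at 37.5, 81.7, 32.6, 17.6 and 42.6 in Adcarc0846, Adcarc1508, Adcarc1511.1, Metadcarc1511.2 and Metadcarc1511.3. The classes did not overlap, with a log2 fold change of -2.02 ± 0.44 (SE, edgeR adjusted p = 0.335, DESeq2 adjusted p = 0.00616). By dog, the log2 fold change of GSTP1 was -1.80 ± 0.46 (SE, edgeR adjusted p = 0.999). PSCA, a surface antigen of prostate and urothelium, was at 42.0 CPM in TCC0840 and no higher than 1.16 in any other line. Without TCC0840, its log2 fold change turned from -4.52 to 1.39.

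The membrane peptidase FOLH1 was also expressed line by line, with 170 CPM in Adcarc1511.1, 53.8 in TCC0840 and 51.3 in TCC1506. The other PAC lines had 0.116 to 7.59 CPM and TCC1509 had 0.0197. TMEFF2, a transmembrane protein with follistatin domains, lay between 44.6 and 119 CPM in the PAC lines, at 226 in TCC1509, 4.40 in TCC0840 and 0 counts in TCC1506. FASN, the fatty acid synthase, was at 705 to 1387 CPM in PAC and 819 to 1235 in TCC lines (log2 fold change -0.10 ± 0.27, SE).

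Of the hormone receptors given here, levels were at or near 0 in nearly all lines. ESR2 stayed at or below 0.0581 CPM. The progesterone receptor PGR had 790 counts (15.6 CPM) in TCC1506 and 0 in the other 7 lines, and ESR1 had 2.15 CPM in TCC1506 and at most 0.150 elsewhere. Both were thus highest in the only line from a female dog, where line, organ and sex cannot be told apart. Of the 9 listed members with an identifier, 3 were tested and none had an unadjusted p below 0.05. The factor HNF4G was at 0.174 to 1.44 CPM in PAC and 0.525 to 1.64 in TCC lines, and the mitotic kinase AURKA was at 33.2 to 79.1 CPM in PAC and 35.3 to 64.2 in TCC lines.

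**Figure D3:**
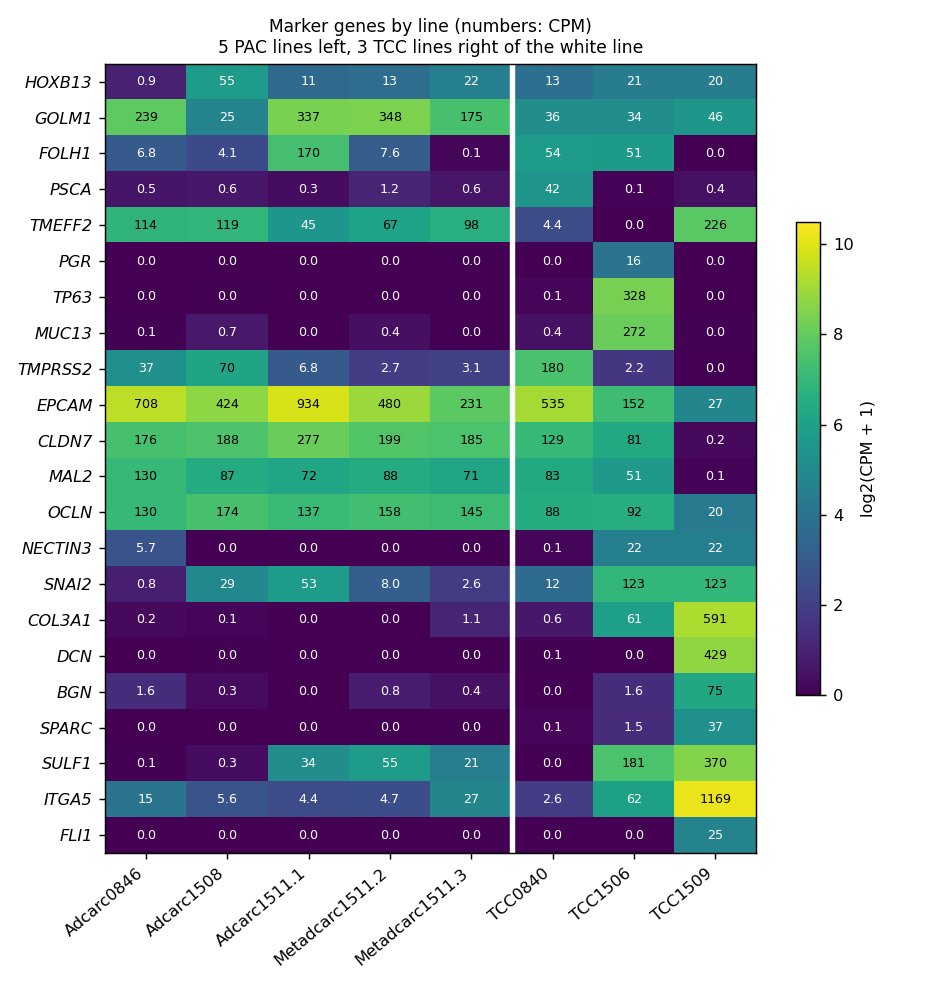
Heat map of log2(CPM + 1) for 22 marker genes (rows) in the 8 lines (columns), with the CPM printed in each cell and the PAC lines left of the white line. TP63, MUC13 and PGR are bright in TCC1506 alone, and the epithelial genes EPCAM, CLDN7 and MAL2 are lowest in TCC1509, in which COL3A1, DCN and ITGA5 are highest.

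The urothelial identity of the TCC lines could be checked only in part, because the uroplakins, GATA3 and most keratins had no identifier here and were not analysed. Of the 17 listed urothelial and luminal genes, 5 had an identifier and 3 were tested. All 3 had a fitted level higher in TCC lines, with a median log2 fold change of -3.14, and none passed. The 3 were TGM1, PSCA and TMPRSS2, and each was far higher in 1 TCC line than in the other TCC lines. The cornified envelope enzyme TGM1 had 710 counts in TCC1506, and 1.31 CPM in TCC0840 and 1.04 CPM in TCC1509 against 0.441 to 0.919 CPM in the PAC lines, and its log2 fold change of -3.14 ± 0.83 (SE, edgeR adjusted p = 0.415) went to -0.93 without TCC1506. TMPRSS2, a serine protease of luminal epithelium, was at 180 CPM in TCC0840 but 2.17 in TCC1506 and 0 counts in TCC1509, and between 2.74 and 69.5 CPM in the PAC lines. MUC13, a transmembrane mucin that did not pass the count filter, had 272 CPM in TCC1506 and at most 0.652 in any other line.

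Among the basal genes, TP63 had 16630 counts (328 CPM) in TCC1506 and at most 4 counts in any other line. It was not tested because neither class had 10 counts in every line. Of 15 basal genes, 13 had an identifier, 11 were tested and none passed, with a median log2 fold change of -0.07. Unadjusted p values were below 0.05 for FAM83A, higher in PAC lines, and EGFR, higher in TCC lines, against 3.75% and 4.84% of all genes. FAM83A, a protein that acts in EGFR signalling, was at 40.2 to 90.3 CPM in 4 PAC lines, at 0 counts in Adcarc0846 and at 3.27, 2.96 and 2.42 in TCC0840, TCC1506 and TCC1509. The receptor tyrosine kinase EGFR was at 174 CPM in TCC0840 and 197 in TCC1506, while TCC1509 at 40.5 lay below all PAC lines (46.6 to 76.3). For EGFR, the log2 fold change of -1.17 ± 0.44 (SE, edgeR adjusted p = 0.525) was -0.37 with the series of sample numbers as a term, and that of FAM83A went from 4.04 to 0.07 with that term. Laminin 332 chains LAMA3 and LAMB3 were lowest in TCC1509, at 71.1 and 22.4 CPM, and at 339 CPM or more in every other line. The ubiquitin ligase TRIM36 was at 9.68 to 40.7 CPM in PAC and at 11.3 to 15.5 in TCC lines.

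Among genes of epithelial junctions and polarity, none passed the test. Of 25 genes, 21 had an identifier and 20 were tested, of which 13 had a log2 fold change above 0, with a median of 0.28. Over all 12557 genes, 5872 were above 0 and the median was -0.04. An unadjusted p below 0.05 was found for 3 and all were higher in PAC lines (KRT80, PCDH1 and OCLN), against 3.75% of all genes. In 4 genes (these 3 and CLDN7), every PAC line was above every TCC line, as for 2.7% of all genes tested. The tight junction protein OCLN was at 130 to 174 CPM in PAC lines, at 88.4 in TCC0840, 92.0 in TCC1506 and 19.6 in TCC1509. For OCLN, the log2 fold change was 1.15 ± 0.45 (SE, edgeR adjusted p = 0.540), and 0.73 without TCC1509. The protocadherin PCDH1 was at 134 to 257 CPM in PAC and 76.9 to 130 in TCC lines, with a log2 fold change of 0.80 ± 0.29 (SE, edgeR adjusted p = 0.511). The claudin CLDN7 had 176 to 277 CPM in PAC lines, 129 in TCC0840, 81.1 in TCC1506 and 0.158 in TCC1509.

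Several of these genes were lowest in TCC1509. The adhesion molecule EPCAM was at 27.3 CPM there, against 535 in TCC0840, 152 in TCC1506 and 231 to 934 in the PAC lines. MAL2, which takes part in apical transport, had 3 counts in TCC1509 (0.0591 CPM) and 50.9 to 130 CPM in the other 7 lines. The junctional adhesion molecule F11R, the plakophilins PKP2 and PKP3 and the repressor of mesenchymal genes OVOL2 were also lowest in TCC1509, at 35.9, 35.1, 34.7 and 3.45 CPM. The summed level of the 21 genes was 1480 CPM in TCC1509, 4458 to 5100 in the PAC lines, and reached 6596 in the TCC lines. The plaque protein JUP and the p53 target PERP were highest in TCC1506, at 1810 and 2275 CPM. NECTIN3, another adhesion molecule, had 1117 counts in TCC1506, 1139 in TCC1509 and 220 in Adcarc0846, and at most 4 in the other 5 lines.

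Among 54 genes of mesenchymal cells and matrix, 52 had an identifier and 26 were tested. Their median log2 fold change was 0.07 and none passed. Unadjusted p values under 0.05 were found for 4 genes higher in PAC (COL5A2, CNN3, COL10A1 and LOXL3) and 3 higher in TCC lines (COL3A1 and FBLN2 among them), against 3.75% and 4.84% of all genes. COL3A1, a fibrillar collagen of stroma, had 591 CPM in TCC1509, 60.6 in TCC1506 and 0.612 in TCC0840, and between 0 and 1.12 in the PAC lines. The log2 fold change of COL3A1, -9.55 ± 2.12 (SE, edgeR adjusted p = 0.351), was -6.71 without TCC1509.

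CNN3, an actin-binding calponin, was at 37.4 CPM in Adcarc1508, at 110 to 204 in the other PAC lines and at 33.0 to 38.5 in the TCC lines. Its log2 difference was 1.87 ± 0.50 (SE, edgeR adjusted p = 0.415). COL10A1, a short-chain collagen, was at 54.4 CPM in Metadcarc1511.2, no higher than 12.5 in the other PAC lines and 0.263 to 0.887 in the TCC lines, and its log2 fold change was 4.90 with and 3.30 without that line. LOXL3, a lysyl oxidase that crosslinks collagen, was highest in the lines of dog 4, at 17.9 to 52.0 CPM, and at 2.01 to 8.34 elsewhere (log2 fold change 2.36, and 1.66 without Adcarc1511.1). FBLN2, a matrix fibulin, was at 3.69 to 11.8 CPM in TCC and 0.351 to 3.84 in PAC lines.

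Fibroblast markers were not shared by the lines. COL1A2 was at or below 0.262 CPM and POSTN at or below 0.193 CPM in all 8, and COL1A1 had 35.8 CPM in TCC1506 and at most 0.256 elsewhere. The proteoglycan DCN had 429 CPM in TCC1509 and at most 0.0583 in the other lines, BGN 75.3 in TCC1509 and at most 1.62 elsewhere, and SPARC 37.1 in TCC1509 and at most 1.54 elsewhere. The lines of dog 4, TCC1506 and TCC1509 had 21.3 to 370 CPM of the heparan sulfatase SULF1, which was at most 0.284 in Adcarc0846, Adcarc1508 and TCC0840. DCN, BGN, SPARC and SULF1 were not tested, because neither class expressed them throughout, and were singled out after their values were seen.

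**Figure D4:**
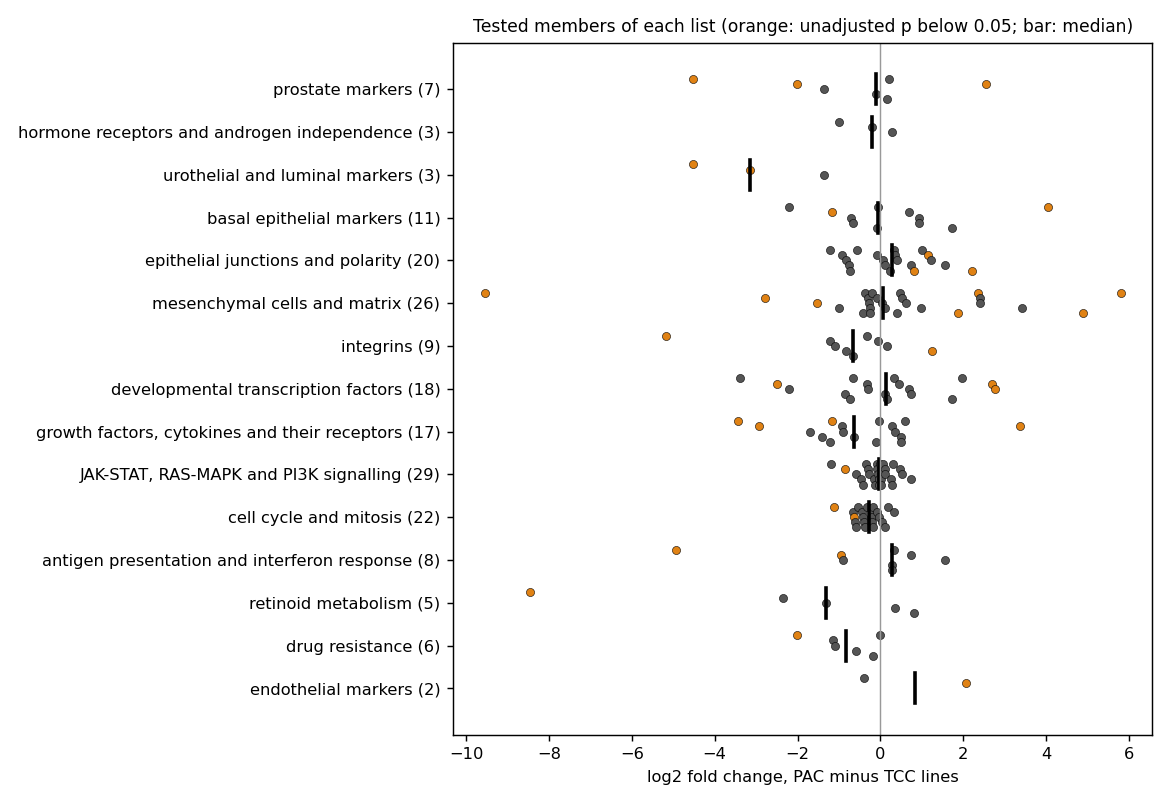
Log2 fold change between PAC and TCC lines (horizontal axis, PAC minus TCC) of each tested member of 15 gene lists (rows, number tested in brackets), with orange points at an unadjusted edgeR p below 0.05 and a bar at the list's median. Points lie on both sides of 0 in all lists except the urothelial and luminal genes, all below 0, and the drug resistance genes, the highest of which lies at 0. The medians of lists with more than 10 tested genes lie between -0.63 and 0.28.

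Of 11 integrins, 9 were tested and the median log2 fold change was -0.65. ITGA5, the alpha subunit of the fibronectin receptor, had 1169 CPM in TCC1509, 61.9 in TCC1506, 2.60 in TCC0840 and 4.38 to 26.8 in the PAC lines. Without TCC1509, its log2 fold change of -5.18 ± 1.48 (SE, edgeR adjusted p = 0.452) became -1.49. The collagen-binding subunit ITGA2 was at 329 to 1198 CPM in PAC and 229 to 459 in TCC lines (log2 fold change 1.25 ± 0.49, SE, edgeR adjusted p = 0.540). The subunits ITGAV, ITGB1 and ITGB5 were highest in TCC1509, at 1647, 2638 and 483 CPM, whereas ITGB6, an epithelial subunit, was lowest there at 3.37 and highest in TCC0840 at 145.

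Developmental transcription factors varied between lines of both classes. Of 30 genes, 18 were tested, with a median log2 fold change of 0.13 and none called. PAX9, a paired box factor, was at 25.1 to 32.4 CPM in the lines of dog 4, at 2.18 in Adcarc0846 and 6.47 in Adcarc1508, and at 2.13 to 3.16 in TCC lines (log2 fold change 2.76 ± 0.86, SE, edgeR adjusted p = 0.476, and 1.56 with the series of sample numbers as a term). KLF15, a regulator of metabolism, was low throughout, at 0.451 to 3.73 CPM in PAC and 0.146 to 0.532 in TCC lines (log2 fold change 2.69 ± 0.78, SE, edgeR adjusted p = 0.453, and 3.51 without TCC1506). TCF7, an effector of WNT signalling, had 46.8 CPM in TCC1509 and 1.28 to 4.24 elsewhere, and its log2 fold change of -2.50 turned to 0.96 without that line. SNAI2, a repressor of epithelial genes, had 123 CPM in both TCC1506 and TCC1509, 11.7 in TCC0840 and 0.830 to 52.7 in the PAC lines. FLI1, a factor of endothelial and blood cells, had 24.7 CPM in TCC1509 and 0 counts in the other 7 lines.

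Growth factors, cytokines and their receptors had 17 tested members of 31 with an identifier, and the median log2 fold change was -0.63. Below an unadjusted p of 0.05 were EGFR, IGFBP4 and WNT5B, higher in TCC lines, and FGF2, higher in PAC lines. The shares over all genes tested were 4.84% and 3.75%. IGFBP4, which binds insulin-like growth factors, was at 329 CPM in TCC1509, 16.6 in TCC1506 and 2.48 in TCC0840, and at 4.29 to 15.5 in the PAC lines. Without TCC1509, the log2 fold change was 0.18 in place of -3.44. The ligand WNT5B had 49.7 and 42.6 CPM in TCC1506 and TCC1509 but 0.175 in TCC0840, the lowest of all lines, and 2.64 to 6.60 in the PAC lines (log2 fold change -2.93 ± 1.09, SE, edgeR adjusted p = 0.525). FGF2 was at 6.03 to 15.8 CPM in the lines of dog 4, at 0.882 and 1.14 in Adcarc0846 and Adcarc1508, and at 0.0789 to 1.89 in TCC lines (log2 fold change 3.36, and 6.2 without TCC1509). The angiogenic factor VEGFA was at 1455 CPM in TCC1506, 521 in TCC1509 and 55.4 in TCC0840, on both sides of the PAC lines at 145 to 296.

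Of 29 tested genes of the JAK-STAT, RAS-MAPK and PI3K pathways, 14 had a log2 fold change above 0 and 15 below or at 0, with a median of -0.04. SMAD2, which carries TGF-beta signals, was the only one with an unadjusted p below 0.05, against 4.84% of all genes higher in TCC lines. It was at 48.2 CPM in TCC1506, 75.7 in TCC1509 and 33.6 in TCC0840 and at 20.8 to 34.7 in PAC lines (log2 fold change -0.85 ± 0.30, SE, edgeR adjusted p = 0.510). The insulin receptor substrate IRS1 was at 3.58 to 13.2 CPM in PAC and 5.77 to 31.3 in TCC lines, and the protein kinase PRKCE at 23.1 to 32.2 in PAC and 12.9 to 25.4 in TCC lines.

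The 22 genes of cell cycle and mitosis were all tested, and 18 had a fitted level higher in TCC lines, as had 6685 of all 12557 genes, with a median log2 fold change of -0.27. None passed, and 2 had an unadjusted p below 0.05 and were higher in TCC lines, against 4.84% of all genes. The centrosomal kinase NEK2 was at 87.2 CPM in TCC0840, 70.1 in TCC1506 and 77.4 in TCC1509, and at 41.7, 44.5, 39.8, 22.9 and 30.8 in Adcarc0846, Adcarc1508, Adcarc1511.1, Metadcarc1511.2 and Metadcarc1511.3. The classes did not overlap (log2 fold change -1.12 ± 0.25, SE, edgeR adjusted p = 0.351), and DESeq2 gave an adjusted p of 0.0192. By dog, the log2 fold change of NEK2 was -1.02 ± 0.26 (SE, edgeR adjusted p = 0.999). The tumor suppressor RB1 was at 29.0 to 54.0 CPM in PAC and 53.0 to 79.9 in TCC lines. CKAP5, a microtubule polymerase, was at 241 to 354 CPM in TCC and 147 to 215 in PAC lines, with a log2 fold change of -0.64 ± 0.22 (SE, edgeR adjusted p = 0.499). The kinase PLK1 was at 31.0 to 45.2 CPM in the lines of dog 4 and at 83.9 to 133 in all other lines, PAC lines included. Cyclin B1 (CCNB1) had the same order, with 26.9 to 49.2 CPM in the lines of dog 4 and 75.7 to 109 in the others.

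Genes of antigen presentation differed from line to line. Of 14, 8 were tested and none passed, with a median log2 fold change of 0.28. CD74, the invariant chain of MHC class II, had 258 CPM in TCC0840 and 70.8 in TCC1506 but 0.827 in TCC1509, and 0.0215 to 13.8 in PAC lines (log2 fold change -4.93 ± 1.85, SE, edgeR adjusted p = 0.525). This value was -6.74 without Adcarc1508, -3.31 without TCC0840 and -2.12 with the series of sample numbers as a term. The class II chain DLA-DRA had 19.6 CPM in TCC0840 and at most 1.24 in any other line. The class I gene DLA-12 was lowest in TCC1506 at 5.28 CPM, at 69.0 and 76.9 in the other TCC lines and at 75.8 to 256 in PAC lines. DLA genes have close relatives, among which RSEM may share reads, and their values are less certain. The adhesion molecule ICAM1 was at 97.8, 292 and 163 CPM in TCC0840, TCC1506 and TCC1509 and at 67.0 to 152 in PAC lines (log2 fold change -0.94 ± 0.41, SE).

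In retinoid metabolism, 5 of 7 genes were tested, with a median log2 fold change of -1.31. The retinol carrier RBP4 had 84.9 CPM in TCC1509, 1.87 in TCC1506, 0.437 in TCC0840 and 0 to 0.167 in PAC lines, and its log2 fold change of -8.45 ± 1.82 (SE, edgeR adjusted p = 0.333) was -3.79 without TCC1509. DHRS9 and RARB, a retinol dehydrogenase and a retinoic acid receptor, did not reach an unadjusted p of 0.05. Of 8 drug resistance genes with an identifier, 6 were tested and GSTP1 was the only one under that p, with a list median of -0.84. Of all genes tested, 4.84% were under that p and higher in TCC lines. The nucleoside transporter SLC29A1 had 12992 CPM in TCC1506 and 2241 to 3519 in the other 7 lines. SLC22A16, a carnitine and anthracycline transporter, was at 22.6 CPM in TCC0840 and at 0.808 to 7.36 elsewhere.

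Markers of other cell types were few. None of the 20 leukocyte markers passed the count filter, and their summed level was 1.49 to 17.1 CPM in PAC and 1.83 to 17.8 in TCC lines. C1QB, TREM2 and TYROBP had 0 counts in all lines, and the highest single value was 16.6 CPM of the integrin ITGB2 in TCC0840, next to 16.1 in Adcarc0846. Of 8 endothelial markers, 2 were tested. The receptor FLT4 was at 26.5 to 86.1 CPM in PAC lines and at 3.94 in TCC0840, 29.0 in TCC1506 and 3.70 in TCC1509 (log2 fold change 2.06 ± 0.80, SE, edgeR adjusted p = 0.540, and log2 fold change 3.74 without TCC1506). VWF was at 0.408 to 3.11 CPM in all lines and KDR at 0.177 or less.

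To see whether the same genes differed between tumors, 3 PAC tissues (the prostate tumor P2 and the metastases Ln4.2 and Ln4.3) were set beside 5 TCC tissues (the prostate tumor P6.1 and the bladder tumors B7, B8, B9 and B10). P2 came from dog 2, and Ln4.2 and Ln4.3 both came from dog 4. P6.1 came from dog 6 and B7 from dog 7. Lines also came from all of these dogs. B8, B9 and B10 came from dogs 8, 9 and 10, aged 11, 8 and 8 years. Tests over the tissues treat Ln4.2 and Ln4.3 as independent. Tissues hold stroma and leukocytes in which fewer cells and less RNA per cell cannot be told apart. Of the 22 genes higher in every PAC line, 18 were tested in tissues, 13 had a tissue difference in the same direction and 10 were at least 2-fold higher in PAC tissues, against 17.8% of all 13755 genes tested there. Of the 12 genes higher in every TCC line, all were tested in tissues, 7 had a tissue difference in the same direction and 4 were at least 2-fold higher in TCC tissues, against 12% of all genes. The tissue difference had the same direction with an unadjusted edgeR p below 0.05 for 6 of the 18 and 3 of the 12 genes. Of all genes tested in tissues, 13.6% were higher in PAC and 10.7% higher in TCC tissues at that p. The tissue difference was opposite with an unadjusted edgeR p below 0.05 for 2 of these 12 genes and for 0 of the 18. ARNT2 was 1 of the 2, with a log2 fold change of 1.19 ± 0.50 (SE, edgeR adjusted p = 0.192) in tissues. These shares rest on few genes, and no test of them was made.

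COL5A2 was higher in every PAC tissue, with 2313, 475 and 2253 CPM in Ln4.2, Ln4.3 and P2, and 109 to 463 CPM in the TCC tissues (log2 fold change 2.87 ± 0.69, SE, edgeR adjusted p = 0.0445). The stromal collagen COL3A1, at most 1.12 CPM in the PAC lines, had the same order, with 20151, 2324 and 25044 CPM in these PAC tissues. In the TCC tissues it was at 160.5 to 817.8 CPM. Whether stroma accounts for the tissue difference of COL5A2 was not tested. GSTP1 was at 63.3 to 84.1 CPM in PAC tissues and at 129 to 331 in 4 TCC tissues, with 40.5 in B7 (log2 fold change -1.37 ± 0.60, SE, edgeR adjusted p = 0.205). GOLM1 was at 56.9 to 95.1 CPM in PAC and 10.6 to 55.1 in TCC tissues, which did not overlap. VAMP5 and KRT80 did not keep theirs. VAMP5 was at 13.8 to 40.3 CPM in PAC and 31.9 to 79.6 in TCC tissues, and KRT80 at 1.22 to 218 in PAC and 58.4 to 229 in TCC tissues. TP63 was at 11.5 to 178 CPM in TCC tissues and 0.215 to 0.665 in PAC tissues. ENSCAFG00000012883, with 0 to 3 counts in PAC lines, had 81.9 to 171 CPM in PAC tissues and 62.3 to 216 in TCC tissues.

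**Figure D5:**
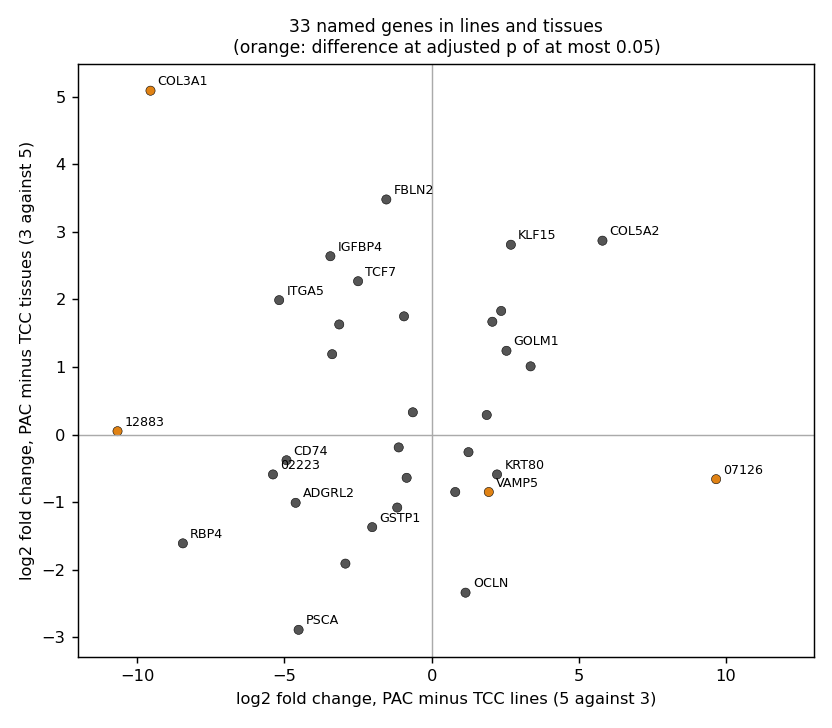
Log2 fold change between PAC and TCC in lines (horizontal axis) and in tissues (vertical axis) for the 33 named genes tested in both, with orange points where both differences are unequal at an edgeR adjusted p of at most 0.05. COL5A2, KLF15 and GOLM1 lie in the upper right, COL3A1 in the upper left, and VAMP5 and KRT80 are above 0 in lines and below 0 in tissues. The sign is the same in lines and tissues for 17 of the 33 genes.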

How the data were processed

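RNA sequencing data (single reads, NextSeq500) of 8 canine cell lines in 22 libraries of 4 lanes were used, and those of 8 tissues beside them. The authors deposited 1 table per lane with expected counts and TPM per Ensembl gene, without further normalization. Per the submitters' notes, RSEM 1.3.0, STAR 2.5.3, Trimmomatic 0.36 and the build CanFam3.1 were used. TPM, which the authors deposited beside them, served only as a check of levels. Lanes 2 to 4 of an Adcarc0846 library have labels rising by lane and were assigned by title.

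Expected counts were summed over lanes and libraries of a line, and rounded. PAC and TCC lines were compared with edgeR 4.0.16 (TMM, quasi-likelihood F test, Benjamini-Hochberg adjustment over all genes tested) in R 4.3.3. Tested genes had at least 10 counts in all PAC or all TCC lines. Differentially expressed genes (DEGs) were 2-fold or more apart at an adjusted p up to 0.01. The SE was the absolute log2 fold change divided by the root of F. CPM used TMM factors. Separation of the classes was described on log2(CPM + 1) and distances on rlog values of DESeq2 1.42.0. The fit was tested on simulated data. Where a class has at most 3 counts per line, fold changes depend on edgeR's prior count and are no bounds. Counts limit precision by counting error only, and p-values measure the spread between these lines.

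The symbols of 1120 identifiers came from the study's supplementary tables, which were chosen by the study on these samples. The members and the 16 gene lists were chosen with earlier results of these data known. Named were, in each list, the members of lowest p (up to 3), members at least 4-fold apart without overlap, and any member of the prostate, hormone receptor, basal and junction lists. Other named genes (VAMP5, ADGRL2, the 3 identifiers, FLI1, SNAI2, VEGFA, PLK1, CCNB1, ITGB1, DLA-DRA, MUC13 and members of short counts) were chosen after their values were seen.

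Alternatives were DESeq2, DESeq2's size factors, no filter or filterByExpr, an adjusted p of at most 0.05, the dog as the sample, dog 4 by Adcarc1511.1 alone, libraries with limma 3.58.1 (voom, line as a random effect), the series of sample numbers, and each line left out. The comparison of lines with tissues by an interaction term and the count over all libraries were added after seeing the data. Python 3.11.15 and pandas 2.3.3 read the files. The tissue Ln6.2 was not used here, and some listed genes are not reported here.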

Additional observations from a re-analysis of the deposited data

Results flagged for a closer look

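Among the 5 PAC lines, 1 line lay far from the others in 4 of 36 named genes, where its gap to the next line exceeded the critical share of 0.71 of the range on log2(CPM + 1). That share is set for about 1 in 20 with 5 independent values. Here 3 of the lines share dog 4, and the named genes were chosen largely by their differences between the lines. The 4 of 36 can therefore not be compared with that rate. GOLM1 was at 25.0 CPM in Adcarc1508. FAM83A was at 0 CPM in Adcarc0846. COL3A1 was at 1.12 CPM in Metadcarc1511.3, and ENSCAFG00000012883 at 0.0501 CPM (3 counts) in Adcarc1508, both next to lines at or near 0. Groups of 3 TCC lines were not examined in this way.

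The difference between PAC and TCC was itself different in lines and tissues for 4 named genes at an edgeR adjusted p of at most 0.05 for the interaction, against 180 of 14566 genes tested (1.24%). The interaction, in log2 units of lines minus tissues, was 2.85 for VAMP5 (adjusted p = 0.0248), -14.6 for COL3A1 (adjusted p = 0.0165), 10.35 for ENSCAFG00000007126 (adjusted p = 0.0165) and -10.54 for ENSCAFG00000012883 (adjusted p = 0.000666). The last 3 depend on near-zero counts in a class of lines and give no fold size. Lines and tissues of the same dogs were treated as independent in this test. The named genes were chosen largely by their differences between the lines, which also enter the interaction. Their share therefore cannot be compared with that of all genes.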

How the results depend on the processing

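No paired analysis was possible by replicate number, because each line entered as 1 pooled sample and the replicate numbers name libraries within a line. Each dog belonged to 1 class, so that dogs could not pair PAC with TCC lines either. Dogs 2, 4, 6 and 7 gave both lines and tissues. A pairing of these by dog was possible for the interaction but was not made. The count of 0 DEGs changed to 106 (64 higher in PAC, 42 in TCC lines) with DESeq2, to 68 (33 and 35) with libraries in limma voom, and to 3 (1 and 2) at an adjusted p of at most 0.05. It was 0 with DESeq2's size factors, without a filter, with filterByExpr, by dog, with dog 4 by Adcarc1511.1, with the series of sample numbers as a term and within the second series. With 1 line left out it was 0 to 1, all of it higher in PAC lines, and 1 only without Adcarc0846.

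Genes without overlap that were higher in PAC lines numbered 22, and 8 with a pseudocount of 5. Those higher in TCC lines numbered 12, and 23 and 6 with pseudocounts of 0.1 and 5. Leaving out 1 line gave 22 to 87 and 13 to 116, since fewer lines separate more easily. The difference of 24.3 in distance was 13.3 to 35.7 with 1 line left out, and 4.4 by dog.

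Of 612 values of 36 named genes under the alternatives, 608 kept their direction. The log2 fold change of PSCA turned from -4.52 to 1.39 without TCC0840 (range with 1 line left out, -5.10 to 1.39) and to 1.5 within the second series. Without TCC1509, that of TCF7 turned from -2.50 to 0.96 (range -3.04 to 0.96) and that of IGFBP4 from -3.44 to 0.18 (range -3.98 to 0.18). With the series of sample numbers as a term, log2 fold changes went from 5.80 to 7.25 for COL5A2, from 4.90 to 3.30 for COL10A1, from 2.36 to 0.96 for LOXL3, from 1.15 to 1.81 for OCLN, from -3.14 to -1.95 for TGM1 and from -4.52 to -2.25 for PSCA. The cause was not tested. Only 3 dogs stand behind each class, the series of sample numbers and the class are partly confounded, and fold changes of genes near 0 counts are imprecise.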
